A study of Pinus tabuliformis with 21 samples.

Results

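The comparison described here is that of UV-C with UV-B after 1 d of irradiation in foliage of the Chinese pine Pinus tabuliformis. It is defined by the sample labels and was chosen with earlier results of these data known. It takes 6 of the 21 libraries of the series, 3 of foliage under UV-C and 3 under UV-B. Seedlings aged 2.5 years stood under fluorescent greenhouse lamps, to which a UV lamp was added for 1 d. UV-C lamps emitted from 230 to 270 nm, most strongly at 254 nm, and gave 28 µW/cm2. UV-B lamps emitted from 280 to 320 nm, most strongly at 306 nm, and gave 280 µW/cm2. The remaining groups were seedlings under either band for 3 or 7 d and control seedlings without either band sampled at 0 h, with 3 libraries each. The UV-B lamps were given at the higher intensity, so wavelength and intensity cannot be told apart in any contrast of the bands. The labels describe 20 seedlings per treatment and do not say whether a library held 1 seedling or several, nor whether replicates came from separate seedlings. The p-values therefore measure only the spread between these libraries, which may be technical.

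UV-B is part of sunlight at the ground, and plants perceive it through UVR8, a photoreceptor characterised in Arabidopsis thaliana whose signalling leads to the synthesis of UV-absorbing flavonoids. UV-C does not reach the ground in sunlight and comes from lamps. Both bands are absorbed by DNA and cause pyrimidine dimers, which plants repair with light-dependent photolyases and by excision. The identifiers of the count table carry no gene names, so none of these pathways, and no marker of leaf tissue, could be looked up. The genes are therefore described by how they behaved, and 4 gene models are followed by identifier. Groups of genes are bulk levels, in which a change in the proportion of cell types and a change of RNA per cell cannot be told apart.

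Of 84525 gene models in the table, 33603 had at least 1 count in the 6 libraries of 1 d and 50922 had none. The 18265 genes with enough counts to be tested took 99.7% of all counts of these 6 libraries. The UV-C libraries held between 6981912 and 7994941 counts and the UV-B libraries between 6628851 and 7637231. UV-C libraries detected 24869 ± 365 gene models (SD, n = 3) and UV-B libraries 25096 ± 476. An exact two-sided permutation test gave p = 0.5 for this difference, where 3 libraries against 3 cannot give a p below 0.1. Replicates varied to a like extent in both bands, with a biological coefficient of variation of 31.2% under UV-C and 32.5% under UV-B, against 13.8% in the control.

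The UV-C libraries lay nearer to the control libraries than the UV-B libraries did. Over 18265 genes, which are not independent replicates, the mean correlation of log2-CPM (CPM is the count scaled to library size, and the logarithm was taken with a prior count of 2) with the 3 control libraries was 0.934, 0.919 and 0.953 for UV-C replicates 1, 2 and 3. It was 0.892, 0.841 and 0.879 for UV-B replicates 1, 2 and 3. Each UV-C value lay above each UV-B value. Within the bands, UV-C replicate 2 was the farthest from the control and UV-B replicate 2 likewise. Correlations between a UV-C and a UV-B library ran from 0.866 to 0.919, below those between replicates, which ran from 0.931 to 0.96 under UV-C and from 0.942 to 0.951 under UV-B.

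After 1 d, foliage under the bands differed in a large part of the tested transcripts. The numbers in each direction were similar, and the genes lower under UV-C differed by more. In edgeR's quasi-likelihood test of all 21 libraries with Benjamini-Hochberg adjustment at 0.05, 1874 genes (10.3% of those tested) were higher under UV-C and 2036 (11.1%) were lower, together 21.4%. The higher genes had a median log2 fold change of 0.81, with quartiles at 0.58 and 1.24. The lower genes had a median of -1.09, with quartiles at -2.21 and -0.61. Over all tested genes the median was -0.02. A difference of at least 2-fold was reached by 683 higher genes and 1095 lower ones, and of at least 4-fold by 192 and 585. Differences of at least 8-fold were found for 72 higher genes (0.394% of those tested) and 329 lower ones (1.8%). A band with 0 counts entered these sizes at the bound that 3 counts over its group allow.

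The libraries of the bands did not overlap for most of these genes, which follows largely from the call, made on the same libraries. All 3 UV-C libraries lay above all 3 UV-B libraries in 1793 of the 1874 higher genes, and below them in 1865 of the 2036 lower genes. Among all tested genes, called or not, 17.4% were without overlap in the first sense and 17.9% in the second.

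The number of genes called depended on how the spread between replicates was estimated. A fit of the 6 libraries alone, with 4 residual degrees of freedom in place of 14, called 856 genes higher (5.31% of the 16117 it tested) and 941 lower (5.84%), together 11.1%. limma voom with a quality weight for each group called 1311 higher (7.18%) and 1362 lower (7.46%), together 14.6% of the 18265. All 3 fits called 759 genes higher (4.16%) and 680 lower (3.72%), 7.88% of those tested, and these 1439 genes are set beside the full lists below as the genes called in all 3 fits. Without UV-C replicate 1 the counts were 1229 higher and 995 lower, without UV-C replicate 3 they were 1505 and 1353, and without UV-B replicate 2 they were 1113 and 1213.

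**Figure D1:**
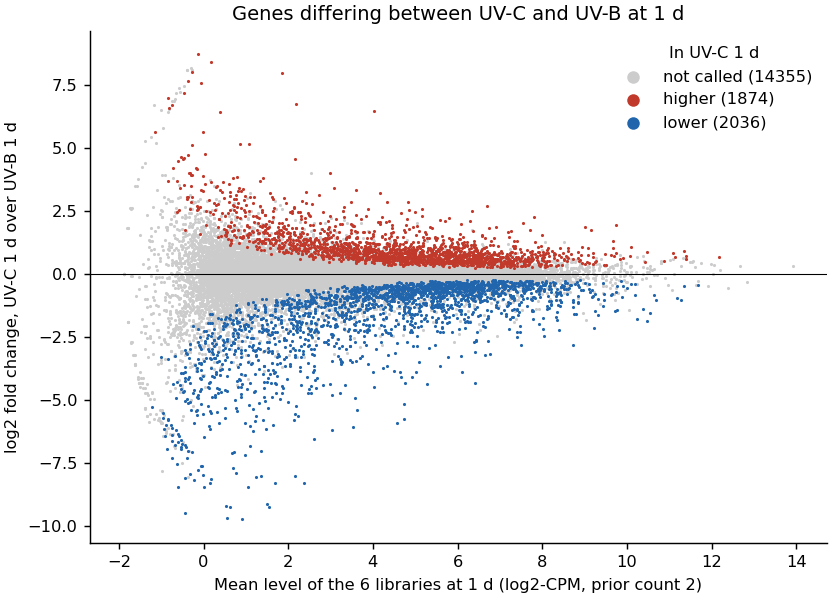
Each point is 1 of 18265 tested genes, placed by its mean level in the 6 libraries of 1 d (log2-CPM) and its log2 fold change of UV-C over UV-B; red and blue mark the 1874 genes called higher and the 2036 called lower under UV-C. Fold changes spread furthest among genes with few counts, and more blue points than red points lie beyond 8-fold (3 on the vertical axis).

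The share of genes called grew with the number of counts, while the size of the called differences shrank. Of 2075 genes with a mean below 10 counts per library, 7.04% were called, with a median absolute log2 fold change of 3.32. Of 1521 genes with a mean of 1000 counts or more, 34.1% were called, with a median of 0.62. The median standard error of the log2 fold change was 0.81 in the first of these classes and 0.15 in the second, so small differences were detectable only in genes with many counts. Counts grow with the length of a transcript as well as its level, and lengths were not used here. In every class of counts, 8-fold differences were more often lower than higher under UV-C, with 66 against 25 below 10 counts, 95 against 9 between 30 and 100, and 23 against 0 between 300 and 1000. Of the 1439 genes called in all 3 fits, 12 had a mean below 10 counts and 231 a mean of 1000 or more.

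Most of the 329 genes at least 8-fold lower under UV-C were barely counted in the control. They were chosen on the 1 d libraries, so their low UV-C and high UV-B levels there follow from the choice. The control and the longer durations entered the choice through the scaling, the filter and the common estimate of spread, but not through the contrast itself. Their median level was 7.69 CPM under UV-B and 0.331 CPM under UV-C, and it was 0.137 CPM in the control. In the control 258 of the 329 averaged under 1 CPM, and 81 had no count in any control library. At 3 d the median of the same genes was 2.91 CPM under UV-C and 4.97 CPM under UV-B. At 7 d it was 0.78 CPM under UV-C and 2.03 CPM under UV-B.

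UV-B replicate 2 was the highest of the 3 UV-B libraries in 234 of the 329 genes (71.1%), replicate 3 in 51 and replicate 1 in 44. Among all 2036 genes called lower, which include the 329, replicate 2 was the highest in 1027 (50.4%), and over all tested genes in 33.9%. Without UV-B replicate 2, the number of genes at least 8-fold different in either direction was 229 in place of 401, and without UV-C replicate 1 it was 240. The count of all called genes fell as well without these libraries, as given above. Among the 1439 genes called in all 3 fits, 82 were at least 8-fold lower and 15 at least 8-fold higher under UV-C.

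The 72 genes at least 8-fold higher under UV-C had a median level of 3.36 CPM under UV-C and 0.19 CPM under UV-B. In the control the median was 1.76 CPM, and 25 of the 72 averaged under 1 CPM there. The same genes remained low in the other UV-B libraries, with medians of 0.365 CPM at 3 d and 0.589 CPM at 7 d. Under UV-C the medians were 1.76 CPM at 3 d and 2.31 CPM at 7 d. Levels under 1 CPM in the control were the case for 34.7% of the strongly higher genes and 78.4% of the strongly lower ones. By the choice, 73.9% of the strongly lower genes averaged under 1 CPM under UV-C at 1 d. Likewise, 88.9% of the strongly higher genes did so under UV-B at 1 d. The filter can keep a gene through 1 group alone, and the share in the control over all tested genes was not taken. The 2 control shares are therefore description only.

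Few gene models were found under one band and not at all under the other. Of all 84525 gene models, 273 had a count in each of the 3 UV-B libraries and none in the 3 UV-C libraries, and 167 had the reverse. Most held few counts, with a median of 10 counts summed over the 3 UV-B libraries in the first set and 6 over the 3 UV-C libraries in the second. A count of 0 allows a level of up to 0.133 CPM over the UV-C libraries and 0.142 CPM over the UV-B libraries, which covers counting error only. With at least 5 counts required in each library of the band, 33 gene models were found under UV-B alone and 4 under UV-C alone. Of the 273 seen under UV-B, 140 had no count in the control, 65 none under UV-C at 3 d and 112 none under UV-C at 7 d. Of the 167 seen under UV-C, 47 had no count in the control and 46 none under UV-B at 3 d.

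The control libraries, which are not among those contrasted, lay close to the UV-C level for most genes that differed. The control was sampled at 0 h, so its position also spans 1 d of time in the greenhouse. For 3356 of the 3910 genes called, or 85.8%, the mean log2-CPM of the control was nearer to that of UV-C than to that of UV-B. The share was 86% among the higher genes and 85.7% among the lower ones, against 69.5% over all tested genes. All tested genes include those whose bands hardly differ, where nearness to either band is little determined. Part of the gap between these shares can therefore follow from the choice of genes with a difference. The share was 90.5% among the 1439 genes called in all 3 fits. Each control library alone gave a share between 83.7% and 85.7% of the called genes. The share was 79% without UV-C replicate 3, the UV-C library nearest to the control. The other libraries of 1 d or the control left out in turn gave up to 89.6%.

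**Figure D2:**
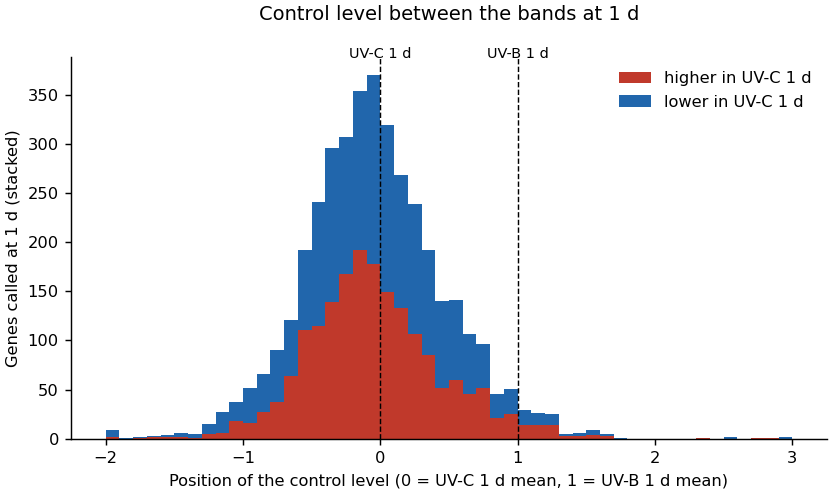
Bars count the 3910 genes called at 1 d by the position of the control mean on a scale where the UV-C mean is 0 and the UV-B mean is 1, with higher and lower genes stacked and positions beyond either end added to the end bars. Both sets are centred near the UV-C mean, with medians of -0.09 for the higher and -0.04 for the lower genes.

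The distance from the control differed accordingly. Over the 3910 called genes, the median absolute difference from the control was 0.91 on the log2 scale under UV-B and 0.28 under UV-C. Over all tested genes it was 0.53 and 0.31. In 2175 of the called genes (55.6%) UV-C lay between the control and UV-B, which is near the 52% of all tested genes. In 1622 (41.5%) the control lay between the bands, against 27.7% of all tested genes. In 113 UV-B lay between the control and UV-C, against 3691 of all 18265 tested genes. Where the control lay between the bands, the distance to one of them was usually small. Only 76 higher and 116 lower genes differed from the control by more than 1.5-fold under both bands in opposite directions.

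The differing genes took a large part of the transcript pool. Genes with many counts were called more often, as given above, which favours a large share. The 1874 genes higher under UV-C took 19.3%, 17.5% and 18.7% of all counts in UV-C replicates 1, 2 and 3, and 11.2%, 9.99% and 11% in UV-B replicates 1, 2 and 3. In the control they took 19.1%, 19.5% and 19.2%. UV-C replicate 1 lay within the control range, the other UV-C libraries below it and all UV-B libraries far below it. The 2036 genes lower under UV-C took 11.2%, 12.7% and 11.2% in the UV-C libraries and 19.1%, 23.8% and 21.5% in the UV-B libraries, against 10.3%, 10.2% and 10.6% in the control. UV-C replicate 2 was the UV-C library nearest to UV-B in both sets, and UV-B replicate 2 was the UV-B library farthest from UV-C in both. Shares were smaller for the genes called in all 3 fits. The 759 higher ones took 8.93% ± 0.36 under UV-C (SD, n = 3), 4.66% ± 0.25 under UV-B and 9.29% ± 0.07 in the control. The 680 lower ones took 3.85% ± 0.25, 8.65% ± 0.73 and 3.5% ± 0.16. The 1 d values describe the choice of these genes, and the control and later libraries entered that choice through the common fit but not through the contrast.

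**Figure D3:**
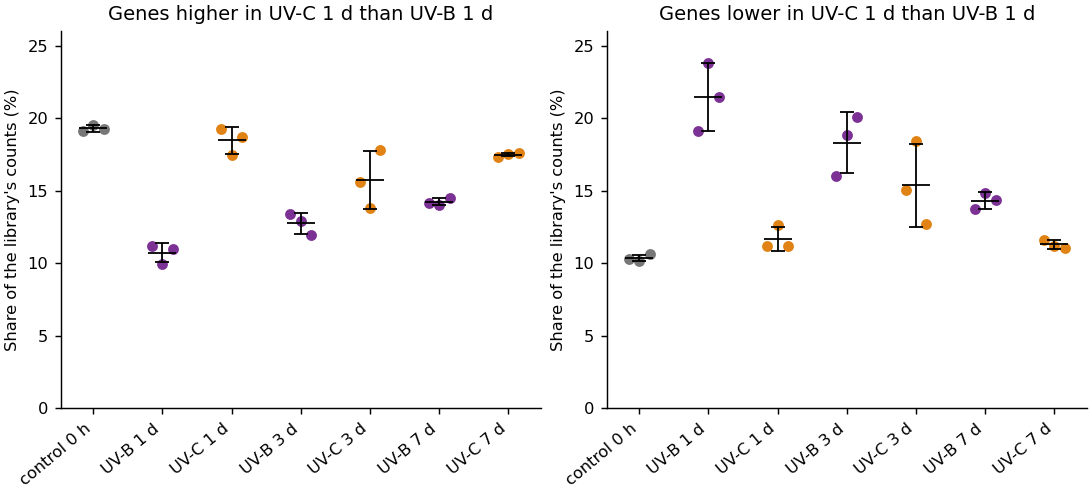
Points are libraries, placed by the share of their counts (%) taken by the 1874 genes higher (left) or the 2036 genes lower (right) in UV-C than UV-B at 1 d; horizontal bars are group means and whiskers are SD (n = 3). The wide gap between the bands at 1 d follows from the choice of the genes, the gaps at 3 and 7 d are smaller, and the 3 UV-C libraries of 3 d are spread widely.

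The means of the bands for these genes also stood apart at the longer durations. Because the genes were chosen for a difference at 1 d, a smaller gap in other libraries follows in part from the choice and is not read as a change with time. The 1874 higher genes took 12.8% ± 0.74 under UV-B at 3 d (SD, n = 3) and 14.2% ± 0.25 at 7 d, and 15.7% ± 2 and 17.5% ± 0.12 under UV-C. The 2036 lower genes took 18.3% ± 2.1 and 14.3% ± 0.58 under UV-B at 3 and 7 d, and 15.4% ± 2.9 and 11.3% ± 0.28 under UV-C. Under UV-C at 3 d the lower genes took 15%, 18.4% and 12.7% in replicates 1, 2 and 3. Replicate 2 lay within the range of UV-B at 3 d, and replicate 3 lay nearest to the control. Over all tested genes, the mean correlations of these replicates with the control libraries were 0.89, 0.833 and 0.945.

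The gene model with the largest fold difference towards UV-C was PITA_000083386-RA, when genes averaging under 2 log2-CPM or with overlapping groups were left aside. It was counted under UV-C at 37.8, 17.6 and 68.9 CPM in replicates 1, 2 and 3. Under UV-B it had 0, 4 and 4 counts, or 0, 0.529 and 0.573 CPM. The control held 97.9, 69.4 and 44.5 CPM. Every UV-C and control library at these times lay far above every UV-B library. The log2 fold change of UV-C over UV-B was 6.72 ± 1.04 (SE; edgeR adjusted p = 0.00046).

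The near absence of PITA_000083386-RA under UV-B held at the longer durations. It had 2, 1 and 2 counts under UV-B at 3 d and 1, 2 and 0 at 7 d, so none of the 9 UV-B libraries held more than 4 counts. Under UV-C it stood at 50.2, 1.87 and 17.4 CPM at 3 d and at 83.9, 113 and 49.1 CPM at 7 d. Replicate 2 of UV-C at 3 d was the lowest of the 9 UV-C libraries. The contrast of the bands was called at 3 d (edgeR adjusted p = 0.0021) and at 7 d (edgeR adjusted p = 0.00054) as well. With group weights the 1 d contrast of this gene was not called (limma adjusted p = 0.16).

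Among the higher genes, PITA_000008841-RA had the largest difference in CPM. It stood at 5813, 5058 and 6740 CPM under UV-C and at 3030, 3449 and 4559 CPM under UV-B. The control, at 5742, 5774 and 5640 CPM, lay within the UV-C range and above all UV-B libraries. The difference was modest in proportion, with a log2 fold change of 0.67 ± 0.15 (SE; edgeR adjusted p = 0.005), and it was not called in the fit of the 6 libraries alone (edgeR adjusted p = 0.091). It was not called at 3 d, with a log2 fold change of 0.09 ± 0.15, nor at 7 d, with 0.24 ± 0.15 (edgeR adjusted p = 0.78 and 0.38).

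By the same rule, the largest fold difference towards UV-B belonged to PITA_000015934-RA. Under UV-B it stood at 17.9, 174 and 65.9 CPM in replicates 1, 2 and 3. Under UV-C it had 1, 5 and 0 counts and in the control 1, 1 and 0 counts. The UV-B libraries differed widely among themselves, with replicate 2 highest. All lay above every UV-C library, as the choice of the gene required, and above every control library. The log2 fold change of UV-C over UV-B was -8.31 ± 1.35 (SE; edgeR adjusted p = 0.00061), and it was not called with group weights (limma adjusted p = 0.14).

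PITA_000015934-RA averaged less under UV-B at 3 and 7 d than at 1 d. This was not tested, and it follows in part from the choice of the gene at 1 d. It stood at 6.85, 24.2 and 39.2 CPM under UV-B at 3 d, overlapping UV-B at 1 d, and at 6.14, 8.13 and 17.9 CPM at 7 d. Under UV-C it stood at 7.79, 18.6 and 0.651 CPM at 3 d and at 0.359, 3.31 and 0.571 CPM at 7 d. Its presence under UV-C at 3 d rests mainly on replicates 1 and 2, as replicate 3 held 5 counts. The bands overlapped at 3 d and did not at 7 d, and the contrast was called at neither (edgeR adjusted p = 0.36 and 0.11).

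Among the lower genes, PITA_000041078-RA had the largest difference in CPM. It stood at 798, 1386 and 312 CPM under UV-C and at 2092, 4709 and 2371 CPM under UV-B. The control held 299.9, 231 and 562 CPM. Replicate 2 was the highest library in both bands. The log2 fold change was -1.88 ± 0.54 (SE; edgeR adjusted p = 0.021), and it was not called in the fit of the 6 libraries alone (edgeR adjusted p = 0.072) or without UV-C replicate 1 or 3 or UV-B replicate 2 (edgeR adjusted p of up to 0.1). At 3 d the group means were nearly the same, at 1658 ± 1061 CPM under UV-C (SD, n = 3) and 1611 ± 625 CPM under UV-B. At 7 d it stood at 455, 409 and 514 CPM under UV-C and at 1076, 1244 and 1022 CPM under UV-B. The bands did not overlap there, but the contrast was not called, with a log2 fold change of -1.28 ± 0.53 (SE; edgeR adjusted p = 0.17).

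**Figure D4:**
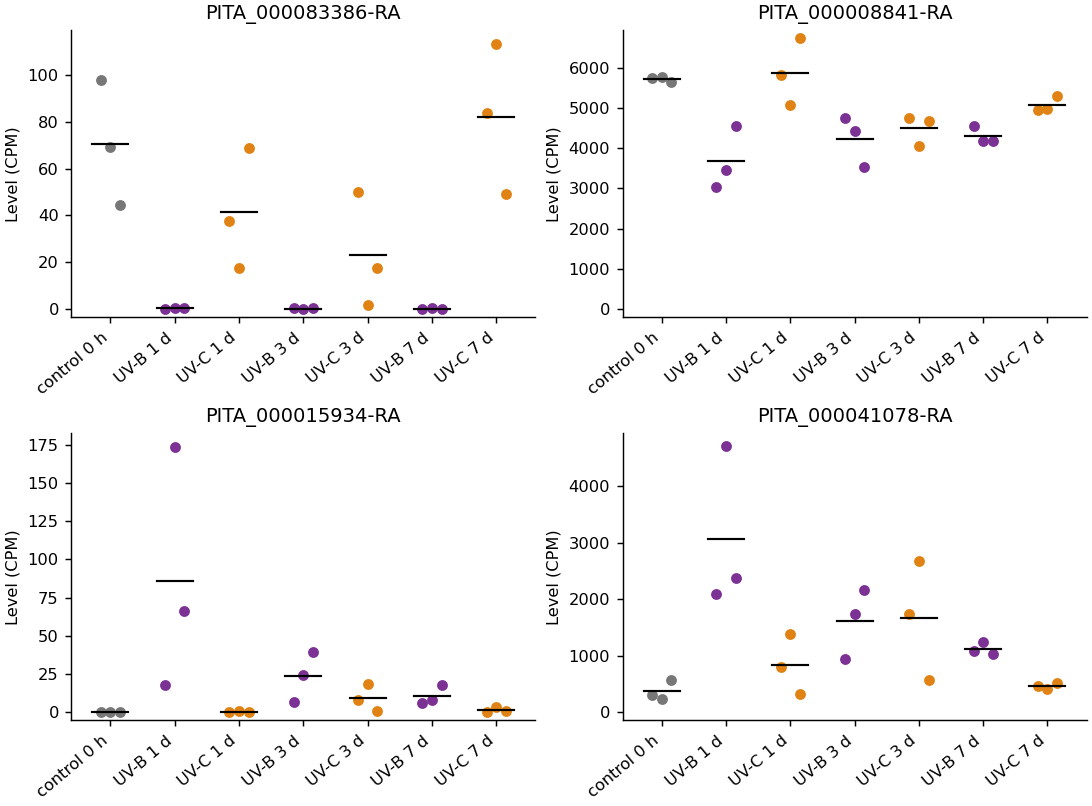
Levels of the 4 followed gene models in all 21 libraries (CPM, linear axis), with points for libraries in the order of replicates 1 to 3 and horizontal bars for group means. PITA_000083386-RA is near 0 in every UV-B library, and PITA_000015934-RA and PITA_000041078-RA are highest under UV-B at 1 d with replicate 2 at the top.

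Genes that differed at 1 d tended to differ in the same direction at 3 and 7 d, in libraries that took no part in their choice other than through the scaling, the filter and the common estimate of spread. Of the 1874 genes higher under UV-C at 1 d, 479 (25.6%) were again higher at 3 d, where 4.54% of all tested genes were, and these made up 57.7% of the 3 d list of 830. At 7 d 289 (15.4%) were called higher, where 3.26% of all tested genes were, and these made up 48.6% of that list of 595. Of the 2036 lower genes, 371 (18.2%) were called lower at 3 d, where 4.05% of all tested genes were, and 250 (12.3%) at 7 d, where 2.83% were. These made up 50.1% of the 740 genes lower at 3 d and 48.4% of the 516 lower at 7 d. Opposite calls were made for 2 higher and 12 lower genes at 3 d and for 9 and 16 at 7 d. Of both directions together, 8.6% of all tested genes were called at 3 d and 6.08% at 7 d. The 850 genes shared with 3 d were 561 without UV-C 3 d replicate 1 and 500 without UV-B 3 d replicate 2 or 3. With 7 d, 539 genes were shared. Leaving out replicate 1, 2 or 3 of UV-C at that duration gave 319, 272 or 284, and leaving out replicate 2 or 3 of UV-B gave 292 or 256.

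The direction was the same more widely than the calls. At 3 d 88.5% of the genes higher at 1 d had a positive fold change, against 51.2% of all tested genes, and at 7 d 75.6% did, against 46.9%. Of the lower genes 76.2% had a negative fold change at 3 d and 78.5% at 7 d, against 48.8% and 53% of all tested genes. Their size was smaller, with median log2 fold changes of 0.42 at 3 d and 0.24 at 7 d for the higher genes and -0.32 and -0.37 for the lower genes. A choice by size at 1 d favours smaller values in other libraries. Among the 1439 genes called in all 3 fits, 467 were called in the same direction at 3 d and 318 at 7 d.

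In the reverse view, the 595 genes higher and 516 lower under UV-C at 7 d were chosen by the 7 d contrast of the same fit. At 1 d, 489 of the 595 (82.2%) had a positive fold change of UV-C over UV-B, against 48.7% of all tested genes, and 289 were called higher. Their median log2 fold change was 0.51. Of the 516, 452 (87.6%) had a negative fold change, against 51.2% of all tested genes, and 250 were called lower, with a median of -0.69 over the 516. The 516 genes took 2%, 2.01% and 1.95% of counts in the 3 UV-C libraries of 1 d and 3.69%, 3.62% and 3.53% in the 3 UV-B libraries, against 1.86%, 1.83% and 1.76% in the control. The groups did not overlap, and UV-C lay close to the control while UV-B lay far above it. The 595 genes took 7.98%, 7.72% and 8.25% under UV-C, 5.56%, 5.62% and 6.29% under UV-B and 7.81%, 8.04% and 8.01% in the control. Of the genes called at 3 d, 751 of 830 and 674 of 740 had the same direction at 1 d.

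A smaller set differed between the bands at all 3 durations, with 154 genes higher and 151 lower under UV-C. Median log2 fold changes of the 154 were 0.96, 0.91 and 0.92 at 1, 3 and 7 d, and those of the 151 were -1.34, -1.37 and -1.33. All had to pass the same threshold at each duration, which favours similar medians, and the medians do not say whether each gene kept its size. A difference of at least 8-fold at every duration was found for 6 of the higher genes, one of them PITA_000083386-RA, and 8 of the lower. The control lay nearer to UV-C than UV-B at 1 d in 129 of the 154 and 114 of the 151. These are smaller shares than in the full 1 d lists, more so for the lower genes. In those lists it was 1612 of 1874 higher genes (86%) and 1744 of 2036 lower genes (85.7%), and 69.5% over all tested genes. In the other direction, 1260 higher genes (67.2%) and 1566 lower genes (76.9%) were called at 1 d alone, which does not show that the bands were alike later.

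**Figure D5:**
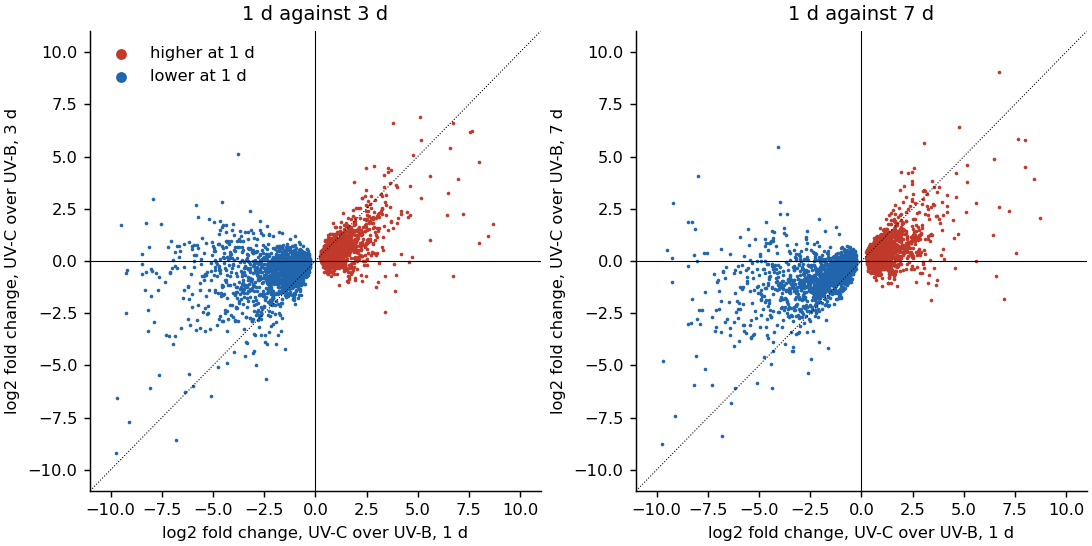
Points are the 3910 genes called at 1 d, placed by the log2 fold change of UV-C over UV-B at 1 d (horizontal) and at 3 d (left) or 7 d (right), with the dotted line at equal values. Most points lie in the quadrants of equal direction and nearer to 0 at the later duration, and many genes lower at 1 d lie close to 0 at 3 d.

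Whether the difference between the bands changed with time was tested by the interaction itself. From 1 d to 7 d it changed for 395 genes (2.16% of those tested; edgeR, Benjamini-Hochberg adjusted). Of these, 167 were higher under UV-C at 1 d and moved down, 156 were lower at 1 d and moved up, none of those called at 1 d moved further apart, and 72 were not called at 1 d. The interaction shares the 1 d libraries with the choice of the genes called there, which favours moves towards 0. From 1 d to 3 d the difference changed for 13 genes (0.0712%), although 3016 had an unadjusted p under 0.05, limma with group weights called 1 and DESeq2 called 618. The 3 d count turned on single libraries. It was 1080 without UV-C 3 d replicate 3, 399 without UV-B 1 d replicate 1, and between 1 and 7 without UV-C 1 d replicate 1 or 3, UV-B 1 d replicate 2, UV-C 3 d replicate 1 or 2, or UV-B 3 d replicate 1 or 2. The 7 d count was 54 without UV-C 1 d replicate 1, 161 without replicate 2 of UV-B 1 d and 163 without its replicate 3. Omitting replicate 1, 2 or 3 of UV-C 7 d left 87, 121 or 236, and omitting replicate 2 or 3 of UV-B 7 d left 132 or 51. None of the 4 followed genes passed either interaction test (smallest edgeR adjusted p = 0.074, for PITA_000015934-RA from 1 d to 3 d).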

How the data were processed

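The authors deposited raw counts per gene model, without normalization, for 21 libraries of poly(A) RNA, read from both ends at 150 bp. Trimming used Trimmomatic 0.36, per the labels' protocols. Counting used featureCounts 1.5.3, per the submitters' processing notes. Aligner, reference, annotation, strand setting and the handling of multiply matching reads: not given in the sources used here. Near-identical gene copies may therefore share or lose reads.

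Groups came from the sample titles. Bands were compared mainly by the two-sided quasi-likelihood F-test of edgeR 4.0.16 in R 4.3.3, on the counts of all 21 libraries, with 1 mean per group, TMM scaling and filterByExpr. Genes were called at an adjusted p under 0.05. Standard errors were derived from the fold change and F. CPM uses TMM-scaled totals. Alternatives were other scalings and filters, DESeq2 1.42.0, limma 3.58.1 voom with group weights, the 6 libraries alone, a replicate block, a minimum fold and leaving out single libraries. Replicate numbers were not treated as pairs. Replicates at 1 d all differed by more than sampling noise (smallest chi-square per degree of freedom 12.7).

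The comparison and its lists were chosen with earlier results of these data known. In each direction 2 genes are followed, both called and without overlap of libraries. One has the largest fold of those averaging 2 log2-CPM or more, the other the largest difference in CPM. The gene lists by name that had been planned could not be matched to identifiers.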

Additional observations from a re-analysis of the deposited data

Results flagged for a closer look

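The difference between UV-C and UV-B changed with duration by a test of the interaction for 395 genes from 1 d to 7 d and for 13 genes from 1 d to 3 d (edgeR, Benjamini-Hochberg adjusted). Of the 395, 211 were among the 1439 genes called at 1 d in all 3 fits, which are 7.88% of those tested, and of the 13, 8 were. The interaction shares the 1 d libraries with that choice, so an overlap of this kind follows from the design. The median standard error of the change was 0.42 on the log2 scale for both, against 0.3 for the 1 d contrast. For PITA_000008841-RA a change of -0.59 from 1 d to 3 d with a standard error of 0.21 was not called (edgeR adjusted p = 0.18), so changes of several standard errors can be missed. Groups of 3 libraries are too small for a test of single outlying libraries.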

How the results depend on the processing

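With DESeq2 size factors, upper quartile factors, all counted genes kept, a filter of 1 CPM in 3 libraries, the DESeq2 Wald test or group weights, the 1 d counts in either direction stayed within 1.5 times of 1874 and 2036, and the median of all genes moved by under 0.1 on the log2 scale. The 6 libraries alone gave 1797 genes (856 higher, 941 lower; 228 at least 8-fold), and a minimum log2 fold change of 1 gave 1778 (683 and 1095). The genes called by the fit of all libraries, that of the 6 libraries and that with group weights, a set chosen after seeing the data, were 1439 (759 and 680; 97 at least 8-fold), of which 467 were called likewise at 3 d and 318 at 7 d. Genes at least 8-fold different were 153 with group weights. Genes called in the same direction at 3 d were 281 with the minimum fold and 359 with group weights, and at 7 d 247 with the minimum fold and 813 with DESeq2. Changes from 1 d to 3 d were 56 with DESeq2 size factors, 376 without a filter, 618 with DESeq2 and 1 with group weights, and from 1 d to 7 d 215 without a filter, 1075 with DESeq2 and 166 with the minimum fold; the cause was not tested. The share of called genes with the control nearer UV-C was 88.2% with group weights and 90.5% for genes called in all 3 of those fits. Gene models found under 1 band were 37 in place of 440 with at least 5 counts per library.

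Leaving out single libraries of 1 d gave from 2224 to 3538 genes called. It gave 1113 to 1590 higher, 995 to 1972 lower and 229 to 440 at least 8-fold different. Without 1 library of the control, 3 d or 7 d, the 1 d counts were 1657 to 2165 higher, all above that range, and 1821 to 2269 lower. The largest of both were those without UV-C 3 d replicate 3. Leaving out single libraries of 1 d or of the later duration gave 500 to 868 genes called likewise at 3 d and 256 to 522 at 7 d. It gave 1 to 1080 changes from 1 d to 3 d and 51 to 541 from 1 d to 7 d. Leaving out single libraries of 1 d or the control gave a share of 79% to 89.6% with the control nearer UV-C. Leaving out libraries of 3 d, 7 d or the control was added after seeing the data. No followed gene changed direction under these alternatives, which for single libraries were computed for those of 1 d alone.

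With the replicate number as a block in the fit of the 6 libraries alone, 932 genes were called, 374 higher and 558 lower, and 178 differed at least 8-fold. Deviations of same-numbered UV-C and UV-B libraries from their group means correlated at -0.04, 0.12 and 0.08 over genes, and not every library correlated best with its own number, so the numbers were not read as pairs.

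With 6628851 to 7994941 counts per library at 1 d, genes with few counts are measured coarsely, and the median standard error of the log2 fold change was 0.81 for genes with a mean below 10 counts.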

Other observations

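The balance of higher and lower genes differed between forms of identifier, a pattern noticed after the values were seen and given without a test. Of 1413 tested gene models with identifiers beginning with PITAhm_, 260 (18.4%) were higher under UV-C at 1 d and 148 (10.5%) were lower. Of 16363 with identifiers beginning with PITA_, 1552 (9.48%) were higher and 1853 (11.3%) lower. Of 489 with any other form, 62 (12.7%) were higher and 35 (7.16%) lower. The PITAhm_ models hold more counts, with a median of 326 per library against 76 for the PITA_ models and 47.5 for the other forms. Among gene models with a mean of 300 to 1000 counts, 25.6% of the 465 PITAhm_ models were higher and 10.1% lower, against 14.8% and 17.9% of 2723 PITA_ models. At 1000 counts or more it was 19.7% and 12.6% of 269, against 14.2% and 20.3% of 1239. Below 100 counts the shares of higher and lower PITAhm_ models were about equal. What distinguishes the forms of identifier is not given in the sources used here.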
